A study of Rattus norvegicus with 28 samples.

Results

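A set of 53 genes of DNA replication, mitosis and their control was followed in cultured rat glia. The members, given as a list of symbols, were 22 genes that act from the end of G1 through S phase, 25 genes of G2 and mitosis, the D-type cyclins Ccnd1 and Ccnd2 with the kinase gene Cdk2, and the CDK inhibitor genes Cdkn1a, Cdkn1b and Cdkn2c. By exact symbol, 51 of the 53 were found among the 23139 genes of the microglial tables, where Cdc45 and E2f1 were not matched, and 53 of 53 among the 20268 and 20056 genes of the astrocyte tables, out of 28459 distinct symbols in all tables. A numbered copy in the microglial tables, Cdc45_1, is given separately.

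Both cell types were prepared from cortical tissue of Wistar rats, taken on postnatal day 1 and grown as mixed cultures in flasks for 10 days in medium with 10% fetal calf serum; microglia were shaken off and sorted on CD11b/c beads. Microglia received their stimulus 1 day after isolation and astrocytes 3 days after it. The agents were recombinant HERV-W ENV, the envelope protein of a human endogenous retrovirus family, at 1 µg/ml with buffer as its vehicle, and LPS, a bacterial lipopolysaccharide sensed by TLR4, at 100 ng/ml with H2O as its vehicle. Each of the 4 microglial groups had 3 libraries and each of the 4 astrocyte groups had 4, which makes 28 libraries of polyadenylated RNA in 8 groups. The time from stimulus to harvest, and how many animals or litters stand behind a library, are not stated. P-values accordingly rest on library-to-library spread alone, which may in part be technical.

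A dividing cell loads the Mcm2 to Mcm7 helicase onto replication origins in G1 with the help of Cdc6 and Cdt1. Cyclin E with Cdk2, and E2F transcription factors released from RB-family proteins, then carry it into S phase, when Cdc45 and the GINS complex activate the helicase, Pcna clamps the polymerase to DNA, and ribonucleotide reductase and thymidylate synthase supply nucleotides. Cyclin A and cyclin B with Cdk1 drive the cell into mitosis, the Plk1, Aurora and Bub kinases control chromosome attachment, and kinesins and Anln complete spindle work and cytokinesis. E2F sites are known for promoters of G1/S genes, and a CHR element, often with CCAAT boxes, for promoters of G2/M genes, where the DREAM complex represses transcription in cells that do not cycle. Cdkn1a encodes p21, an inhibitor of cyclin-dependent kinases.

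RefSeq promoters of build GRCr8, from 250 bases before to 50 after the gene start, were matched for 43 of the 53 members. The letters searched, on both strands, were for the E2F type TTCCCGC together with its variants TTGGCGC, also TTCGCGC, and further TTGCCGC, for the CHR type TTTGAA or else TTCGAA, and lastly the box CCAAT; matches may overlap, and a promoter counts once per type. An E2F-type match was present in 70.6% of 17 G1/S promoters and 18.2% of 22 G2/M promoters, beside 9.52% of all 33469 promoters in the table. For the CHR-type letters the order was the opposite, with 23.5% of G1/S, 72.7% of G2/M and 19.7% of all promoters. CCAAT was found in 70.6%, 77.3% and 37.5% of them, and CHR with CCAAT together in 17.6%, 59.1% and 7.95%. A match describes the letters of this window and does not show a bound site.

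The 250 bases before the start are shown for 6 members. Mcm5 and Mcm6 stand for helicase genes with a large response, Cdk1, Cdc20 and Top2a for G2/M genes, and Mcm10 for a replication gene whose level did not pass the test in either microglial comparison. They lie at chr19:13488563-13488812 (plus strand) for Mcm5, chr13:42404353-42404602 (minus strand) for Mcm6, chr17:78175137-78175386 (plus strand) for Mcm10, chr20:19265043-19265292 (plus strand) for Cdk1, chr5:137255800-137256049 (minus strand) for Cdc20 and chr10:84473094-84473343 (minus strand) for Top2a. Capitals mark the letters above or their reverse complement (ATTGG for CCAAT, for example), and each runs 5′ to 3′ on the gene's strand.
Mcm5: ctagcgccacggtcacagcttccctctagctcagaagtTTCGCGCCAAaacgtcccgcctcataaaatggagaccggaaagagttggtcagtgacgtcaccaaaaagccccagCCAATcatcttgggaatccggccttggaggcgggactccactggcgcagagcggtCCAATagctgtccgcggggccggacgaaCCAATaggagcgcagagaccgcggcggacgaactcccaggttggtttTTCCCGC
Mcm6: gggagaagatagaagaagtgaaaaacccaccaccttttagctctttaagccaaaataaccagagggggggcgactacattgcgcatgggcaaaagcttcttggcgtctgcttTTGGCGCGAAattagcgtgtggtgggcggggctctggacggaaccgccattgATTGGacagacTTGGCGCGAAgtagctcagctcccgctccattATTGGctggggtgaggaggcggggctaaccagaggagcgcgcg
Mcm10: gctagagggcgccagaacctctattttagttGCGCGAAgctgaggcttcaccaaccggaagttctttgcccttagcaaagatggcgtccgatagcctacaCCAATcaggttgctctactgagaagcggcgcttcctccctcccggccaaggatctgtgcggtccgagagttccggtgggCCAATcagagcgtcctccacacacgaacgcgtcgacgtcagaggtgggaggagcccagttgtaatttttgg
Cdk1: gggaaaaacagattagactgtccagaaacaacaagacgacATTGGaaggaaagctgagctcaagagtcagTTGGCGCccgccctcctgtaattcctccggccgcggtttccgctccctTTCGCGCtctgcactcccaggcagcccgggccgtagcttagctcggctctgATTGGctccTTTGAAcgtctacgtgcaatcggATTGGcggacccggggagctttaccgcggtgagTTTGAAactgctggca
Cdc20: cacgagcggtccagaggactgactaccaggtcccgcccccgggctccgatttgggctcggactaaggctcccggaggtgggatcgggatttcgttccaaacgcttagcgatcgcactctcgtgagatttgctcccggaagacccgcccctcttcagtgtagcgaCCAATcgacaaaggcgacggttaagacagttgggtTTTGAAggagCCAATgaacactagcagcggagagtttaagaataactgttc
Top2a: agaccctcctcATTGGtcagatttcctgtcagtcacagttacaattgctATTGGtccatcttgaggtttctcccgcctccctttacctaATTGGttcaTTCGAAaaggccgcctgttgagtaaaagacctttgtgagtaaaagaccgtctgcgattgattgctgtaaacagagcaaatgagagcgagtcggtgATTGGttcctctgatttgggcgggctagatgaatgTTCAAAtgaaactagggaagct
The capitals in Mcm5, Mcm6 and Mcm10 are E2F-type and CCAAT letters, those in Cdc20 and Top2a are CHR-type and CCAAT letters, and Cdk1 holds all 3 types.

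Levels are in CPM, a gene's counts scaled to the library's total, which was 26513999 to 42724111 counts in microglia and 23742228 to 35326938 in astrocytes; 3 counts, taken as the floor, correspond to 0.0702 to 0.113 CPM and 0.0849 to 0.126 CPM. Log2 changes come from edgeR after TMM scaling and are called at an adjusted p under 0.05 over all genes tested; against plain CPM they lie 0.20 higher for ENV and 0.31 higher for LPS in microglia, and 0.013 and 0.018 higher in astrocytes. The sorted cells carried the microglial markers Csf1r, Cd68 and C1qa among their highest, with a summed level of 19 listed markers of 13195 to 17019 CPM with buffer, 12516 to 14574 CPM with ENV, 13572 to 16227 CPM with H2O and 7862 to 12999 CPM with LPS, where library 3 was the lowest, against 290 to 1230 CPM over all astrocyte libraries. The astrocyte cultures carried Gfap, Glul and Slc1a3, and also 16 of 16 fibroblast and mural cell markers, led by Fn1 and Tagln. In bulk RNA, fewer cells of a type and less RNA per cell cannot be told apart.

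Most of the set was lower in microglia with ENV than with buffer: 41 of 51 members fell and 1, Cdkn1a, rose, where 14.7% of all 12844 genes were called lower and 16.2% higher. G1/S members fell in 16 of 20 cases with a median log2 change of -1.51 (range -2.23 to 0.26), and G2/M members in 23 of 25 with a median of -1.64 (range -2.28 to 0.28), beside a median of -0.033 over all genes tested. With all 4 microglial groups in 1 fit, 13 G2/M members were called lower. The share of all genes called lower in that fit is not given, so this count has no background beside it. The ENV libraries lay below all buffer libraries for 45 members and above all of them for 1, and the groups overlapped for 5; of all 12844 genes, 37.2% lay wholly below and 16.7% wholly above in the same plain CPM. Of the 42 members called, 23 (7 G1/S and 16 G2/M among them) were called in each of the 6 fits that left out 1 library; the number lower was smallest, 23 members with 7 G1/S and 16 G2/M, without ENV library 2.

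Helicase subunits fell with ENV in 5 of 6 cases. Mcm5 was at 58.6, 54.6 and 73.5 CPM with buffer and 3.57, 10.7 and 25.7 CPM with ENV. All 3 ENV libraries lay below the buffer libraries, and they differed among themselves more than the buffer libraries did. The log2 change of Mcm5 was -2.04 ± 0.6 (SE, adjusted p = 0.0399), the largest of the helicase. Mcm6 was at 74.3, 67.5 and 84.6 CPM with buffer against 13.7, 23.6 and 33.9 CPM with ENV, with no overlap and a log2 change of -1.48 ± 0.3 (SE, adjusted p = 0.0103). The subunit that missed the threshold was Mcm3, at 48.6, 42.5 and 62.7 CPM with buffer and 18.6, 18.7 and 35 CPM with ENV, also without overlap, with -0.9 ± 0.28 (SE, adjusted p = 0.0506); with the replicate block it was called lower (-0.94, adjusted p = 0.00361).

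Among the genes that license and fire origins, Cdc6, the loader of the helicase, stood at 8.03, 9.8 and 12.6 CPM with buffer and 0.686, 1.99 and 3.63 CPM with ENV. Cdt1, its partner in loading, stood at 14.5, 13.4 and 20.9 CPM with buffer against 2.53, 2.9 and 7.45 CPM with ENV. Gins1, a subunit of the GINS complex, was at 10.3, 10.1 and 18.1 CPM with buffer against 1.34, 2.42 and 3.46 CPM with ENV. No ENV library of the 3 genes reached a buffer library, and their log2 changes were -2.08 ± 0.51, -1.73 ± 0.43 and -2.23 ± 0.4 (adjusted p = 0.0221, 0.0232 and 0.00671). The numbered copy Cdc45_1 was at 9.5, 8.61 and 13.4 CPM with buffer and 1.15, 2.48 and 4.06 CPM with ENV, a change of -1.85 ± 0.43 (SE, adjusted p = 0.0177). Gins2, another GINS subunit, was at 9.66, 10.7 and 20.4 CPM with buffer and 5.85, 6.98 and 10.2 CPM with ENV. Its groups overlapped and its change of -0.64 ± 0.35 (SE, adjusted p = 0.204) did not pass, though with the replicate block it did (-0.59, adjusted p = 0.0342). Mcm10, which helps to activate the loaded helicase, was at 18.9, 19.4 and 17.2 CPM with buffer and 19.7, 17.2 and 20.9 CPM with ENV, a change of 0.26 ± 0.13 (SE, adjusted p = 0.176); its groups overlapped, although its promoter above holds E2F-type letters as those of Mcm5 and Mcm6 do.

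Pcna, the sliding clamp, was at 134, 135 and 162 CPM with buffer and 33.6, 38.7 and 47.9 CPM with ENV. The log2 change was -1.65 ± 0.16 (SE, adjusted p = 0.000642), with a smaller standard error than for Mcm5. The clamp loader genes changed less, with -0.94 ± 0.23 (SE, adjusted p = 0.021) for Rfc3 and -0.69 ± 0.22 (SE, adjusted p = 0.0529) for Rfc4, which was called only with the replicate block (-0.65, adjusted p = 0.0230). The 3 genes of nucleotide supply all fell. Rrm2, the regulated subunit of ribonucleotide reductase, was at 79.2, 76.6 and 105 CPM with buffer and 9.35, 23.3 and 29.9 CPM with ENV, -1.88 ± 0.38 (SE, adjusted p = 0.0112). Its partner Rrm1 changed by -0.77 ± 0.19 (SE, adjusted p = 0.0222). Tyms, thymidylate synthase, was at 35.2, 39.8 and 30.7 CPM with buffer against 18, 22 and 19.4 CPM with ENV, -0.63 ± 0.12 (SE, adjusted p = 0.00995), the smallest called fall among G1/S members. The cyclin E genes fell together: Ccne1 was at 12.5, 12.3 and 18.4 CPM with buffer and 2.31, 3.85 and 6.1 CPM with ENV, and Ccne2 at 9.73, 9.63 and 9.36 CPM with buffer against 0.974, 2.55 and 4.42 CPM with ENV. Their changes were -1.63 ± 0.36 (SE, adjusted p = 0.0146) and -1.66 ± 0.45 (SE, adjusted p = 0.0312). Uhrf1, which brings the maintenance DNA methyltransferase to new DNA, was at 39.1, 33 and 24.7 CPM with buffer against 5.38, 10.1 and 13.8 CPM with ENV, -1.53 ± 0.33 (SE, adjusted p = 0.0132).

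Ccna2, cyclin A, had the largest fall of all 51 members with ENV: it was at 38, 37.3 and 49.99 CPM with buffer and 3.68, 9.56 and 9.5 CPM with ENV, -2.28 ± 0.35 (SE, adjusted p = 0.0037). Ccnb1, cyclin B, was at 33.1, 32.2 and 43.4 CPM with buffer against 4.84, 10.5 and 12.1 CPM with ENV, -1.8 ± 0.32 (SE, adjusted p = 0.00667). Cdk1, the kinase both cyclins bind, was at 36, 39.2 and 53.4 CPM with buffer and 3.03, 9.92 and 14.6 CPM with ENV, -2.04 ± 0.49 (SE, adjusted p = 0.0201). In each of these genes all ENV libraries lay below all buffer libraries. Cdc20, the activator of the anaphase-promoting complex, was at 29, 33.1 and 45.1 CPM with buffer against 5.31, 11.3 and 13.9 CPM with ENV, -1.63 ± 0.34 (SE, adjusted p = 0.0125). Cdc25c, a phosphatase that activates Cdk1, was at 4.64, 4.9 and 4.61 CPM with buffer and 4.26, 5.71 and 5.05 CPM with ENV, overlapping, and did not pass (0.28 ± 0.18, adjusted p = 0.272).

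Mitotic kinases and checkpoint genes fell in 6 of 7 cases. Plk1, a kinase of mitotic entry and spindle assembly, was at 24.3, 25.2 and 33.3 CPM with buffer and 2.2, 6.27 and 9.14 CPM with ENV, -2.05 ± 0.45 (SE, adjusted p = 0.0144). Bub1, a spindle checkpoint kinase, was at 28.4, 29.1 and 25.6 CPM with buffer against 2.96, 6.95 and 8.44 CPM with ENV, -1.99 ± 0.33 (SE, adjusted p = 0.00535). The 2 Aurora kinases differed in their calls: Aurkb, of the chromosomal passenger complex, was at 24, 21.3 and 34.2 CPM with buffer and 7.76, 10.6 and 15.9 CPM with ENV, -1.03 ± 0.3 (SE, adjusted p = 0.0374). Aurka, the centrosomal one, was at 23, 26.4 and 36.8 CPM with buffer against 17.8, 18.9 and 26.6 CPM with ENV, overlapping, with a change of -0.25 ± 0.23 (SE, adjusted p = 0.438); the difference between the 2 genes was not tested.

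All 10 spindle and cytokinesis members fell with ENV, within a range of -1.77 to -1.28. Nusap1, a microtubule-binding protein of the spindle, had the largest of these changes, -1.77 ± 0.35 (SE, adjusted p = 0.0103). Birc5, survivin, was at 14.1, 15 and 25.9 CPM with buffer and 3.93, 5.81 and 8.08 CPM with ENV, -1.44 ± 0.34 (SE, adjusted p = 0.0193). Anln, anillin, which organises the contractile ring, was at 38.9, 40.9 and 28.4 CPM with buffer against 5.99, 12 and 12.2 CPM with ENV, -1.64 ± 0.27 (SE, adjusted p = 0.00502). Top2a, the topoisomerase that untangles replicated chromosomes, was at 91, 88.1 and 86.9 CPM with buffer, one of the tightest groups, and 12.3, 30.2 and 33.9 CPM with ENV, -1.61 ± 0.32 (SE, adjusted p = 0.0105). Mki67, which coats mitotic chromosomes and is the usual marker of cycling cells, was at 162, 145 and 139 CPM with buffer against 10.7, 27 and 49.6 CPM with ENV, -2.17 ± 0.47 (SE, adjusted p = 0.0144). ENV library 1 was the lowest of the 3 for each of Mcm5, Cdk1, Plk1, Top2a and Mki67.

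The D cyclins of the set, Ccnd1 and Ccnd2, which bind Cdk4 and Cdk6 in G1, did not pass with ENV. Ccnd1 was at 247, 266 and 153 CPM with buffer and 121, 135 and 142 CPM with ENV, all below, -0.54 ± 0.19 (SE, adjusted p = 0.0741). Ccnd2 was at 91.8, 118 and 61.4 CPM with buffer against 104, 149.6 and 91.6 CPM with ENV, overlapping, 0.56 ± 0.26 (SE, adjusted p = 0.14); with the replicate block it was called higher (0.57, adjusted p = 0.00974). Cdk2, the partner of cyclin E and cyclin A, was at 21.4, 21.4 and 22.4 CPM with buffer and 11.5, 12.7 and 16 CPM with ENV and fell, with a small log2 change of -0.5 ± 0.15 (SE, adjusted p = 0.0426).

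Of the inhibitors, Cdkn1a was at 139, 169 and 115 CPM with buffer and 559.9, 337 and 174 CPM with ENV. Every ENV library lay above every buffer library, with library 1 the highest and library 3 the nearest to buffer. The change of Cdkn1a was 1.57 ± 0.41 (SE, adjusted p = 0.028), and it was called in 1 of the 6 fits that left out 1 library, with an adjusted p of up to 0.0739 in the others. Cdkn1b, p27, was at 35.4, 36.6 and 38.4 CPM with buffer against 30.8, 28.1 and 26.6 CPM with ENV, without overlap but not past the threshold (-0.17 ± 0.12, adjusted p = 0.339). Cdkn2c, p18, an inhibitor of Cdk4 and Cdk6, was at 13.8, 12.3 and 17.7 CPM with buffer and 3.57, 4.96 and 7.03 CPM with ENV and fell, with a log2 change of -1.3 ± 0.27 (SE, adjusted p = 0.0127).

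Genes of the same processes outside the set were also mostly lower with ENV. Of 41 other replication genes tested 27 fell and 1 rose, and of 59 other mitosis genes 51 fell and 0 rose, with medians of -0.89 and -1.42. The largest falls were those of Orc1, the largest subunit of the origin recognition complex, from 5.34 ± 0.935 to 0.629 ± 0.525 CPM with -2.89 ± 0.58 (adjusted p = 0.0107), and of the kinetochore gene Spc24, from 11.3 ± 4.93 to 1.82 ± 0.977 CPM with -2.45 ± 0.46 (adjusted p = 0.00844). Wdhd1, a replisome scaffold, was the 1 that rose, from 23.5 ± 1.55 to 34 ± 4.43 CPM with 0.74 ± 0.14 (adjusted p = 0.00847). Among E2F, RB and DREAM regulators 12 of 27 fell, among them the E2F repressors E2f7 (-2.17 ± 0.38 (adjusted p = 0.00658)) and E2f8 (-1.97 ± 0.51 (adjusted p = 0.0263)) and the activator Mybl2 (-1.96 ± 0.51 (adjusted p = 0.0274)), and 1 rose, the D cyclin Ccnd3, from 53.4 ± 8.44 to 93.7 ± 8.0 CPM with 1.01 ± 0.15 (adjusted p = 0.0035).

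Targets of p53, a transcription factor that also drives Cdkn1a, were called lower in 2 and higher in 5 of 22, shares near the 14.7% and 16.2% of all genes, with a median log2 change of 0.098. The risers included Phlda3 (1.75 ± 0.49 (adjusted p = 0.0356)) and Fas (1.41 ± 0.23 (adjusted p = 0.00456)), and Sesn1 (-0.94 ± 0.16 (adjusted p = 0.00509)) fell. Cdkn2a, which encodes p16 and ARF, rose from 12.5 ± 1.58 to 29.4 ± 8.5 CPM, 1.43 ± 0.21 (adjusted p = 0.00296). Among glial mitogens and receptors 5 of 16 fell and 3 rose, beside the same shares of all genes. The growth factor genes Csf1, from 93.9 ± 37.3 to 20.3 ± 5.15 CPM, and Pdgfb, from 28.8 ± 14.9 to 3.86 ± 1.32 CPM, fell, with log2 changes of -2.0 ± 0.35 (adjusted p = 0.00623) and -2.69 ± 0.48 (adjusted p = 0.00699). Csf2rb, the shared beta chain of cytokine receptors, rose from 36.3 ± 8.6 to 329 ± 36.3 CPM, 3.39 ± 0.21 (adjusted p = 0.000184).

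**Figure D1:**
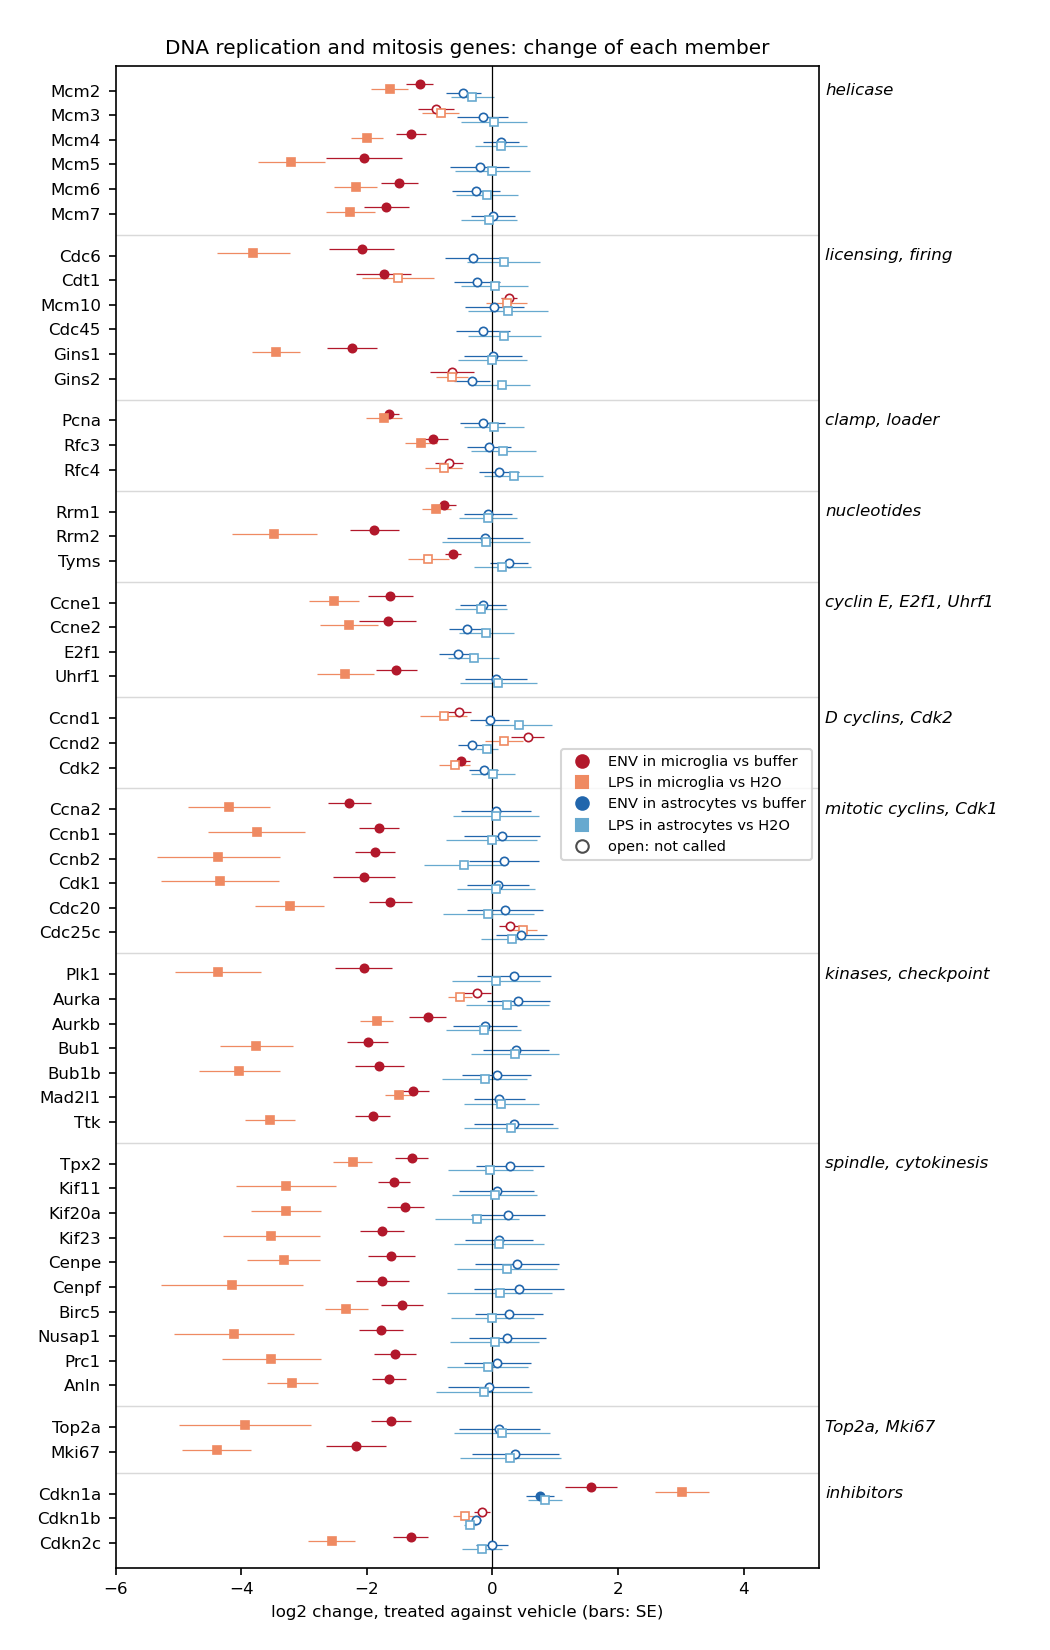
Log2 change of each member (points, with bars of 1 standard error) in the 4 treated comparisons, members ordered by role. In microglia most points lie left of 0, and G2/M members lie farther left with LPS (median -3.52) than with ENV (median -1.64); in astrocytes they lie around 0.

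With LPS, 38 of 51 members fell in microglia and again only Cdkn1a was called higher, where 13.8% of all 12229 genes were called lower and 16% higher. G1/S members fell in 14 of 20 cases with a median log2 change of -1.86 (range -3.80 to 0.23), and G2/M members in 23 of 25 with a median of -3.52 (range -4.39 to 0.49), beside a median of -0.024 over all genes. All LPS libraries lay below all H2O libraries for 47 members and above them for 1, and the groups overlapped for 3, where 41.5% of all 12229 genes lay wholly below and 13.8% wholly above. For Mcm5, Pcna, Cdk1 and Top2a the H2O libraries spread more widely than the buffer libraries, with library 3 the highest. Of the 39 members called, 25 (9 G1/S and 14 G2/M among them) were called in each of the 6 fits that left out 1 library; the number lower was smallest, at 24, without H2O library 1 and without LPS library 2.

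The largest falls with LPS were in mitotic genes. Mki67 was at 184, 88.7 and 182 CPM with H2O and 2.43, 6.58 and 8.61 CPM with LPS, and its log2 change of -4.39 ± 0.55 was the largest of the set (adjusted p = 0.00433). Plk1 was at 21.1, 16.4 and 33.3 CPM with H2O and 0.228, 0.862 and 1.68 CPM with LPS, -4.37 ± 0.69 (SE, adjusted p = 0.00779). Cdk1 was at 23.4, 17.5 and 43.3 CPM with H2O against 0.177, 0.574 and 2.6 CPM with LPS, -4.34 ± 0.94 (SE, adjusted p = 0.0194). LPS library 1 was the lowest and library 3 the highest of the 3 in each of Plk1, Cdk1, Ccnb1, Top2a and Cenpf. Top2a went from 57.4, 35.8 and 107 CPM with H2O to 0.329, 2.25 and 7.98 CPM with LPS, -3.94 ± 1.05 (SE, adjusted p = 0.0353). Ccnb2, the other cyclin B gene, had the largest fall of the cyclins, from 17.5, 14.2 and 27 CPM with H2O to 0.0507, 0.522 and 1.73 CPM with LPS, where LPS library 1 lay below its floor, -4.36 ± 0.98 (SE, adjusted p = 0.0213). Cenpf, a kinetochore protein, led the spindle members, from 31.7, 18.7 and 34.9 CPM with H2O to 0.0507, 0.574 and 3.28 CPM with LPS, again with LPS library 1 below its floor, -4.15 ± 1.13 (SE, adjusted p = 0.038).

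Ccna2 was at 31.5, 23.4 and 51.3 CPM with H2O and 0.456, 1.59 and 2.65 CPM with LPS, -4.19 ± 0.65 (SE, adjusted p = 0.00746), and Ccnb1 at 19.7, 16.3 and 36.2 CPM with H2O against 0.355, 1.02 and 2.94 CPM with LPS, -3.75 ± 0.77 (SE, adjusted p = 0.0162). Bub1 was at 23.8, 18.7 and 33.5 CPM with H2O against 0.532, 1.33 and 2.68 CPM with LPS, -3.76 ± 0.58 (SE, adjusted p = 0.00753). The groups were apart for each of these genes. Cdc20 (16.8, 16 and 33.4 CPM with H2O against 1.09, 1.23 and 3.36 CPM with LPS), Aurkb (19.6, 15.1 and 29.4 CPM with H2O against 4.15, 5.69 and 4.54 CPM with LPS) and Birc5 (10.2, 9.13 and 17.2 CPM with H2O against 1.27, 2.3 and 2.34 CPM with LPS) changed by -3.23 ± 0.55, -1.84 ± 0.26 and -2.32 ± 0.35 (adjusted p = 0.00957, 0.00603 and 0.0066). Anln was at 45.9, 31.2 and 50.02 CPM with H2O and 2.05, 3.52 and 5.75 CPM with LPS, -3.19 ± 0.4 (SE, adjusted p = 0.00454). As with ENV, Cdc25c and Aurka were the G2/M members not called: Cdc25c was at 4.49, 4.14 and 6.06 CPM with H2O against 4.91, 5.33 and 6.36 CPM with LPS (0.49 ± 0.23, adjusted p = 0.153), and Aurka at 20.7, 18.8 and 30.2 CPM with H2O against 12.8, 14.5 and 12 CPM with LPS (-0.51 ± 0.2, adjusted p = 0.0925).

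G1/S members spread more widely with LPS. Cdc6 had the largest fall, from 6.99, 5.04 and 11.4 CPM with H2O to 0.177, 0.731 and 0.446 CPM with LPS, -3.8 ± 0.58 (SE, adjusted p = 0.00725). Rrm2 went from 61.8, 43 and 95.8 CPM with H2O to 1.29, 4.96 and 8.4 CPM with LPS, -3.47 ± 0.68 (SE, adjusted p = 0.0142), and Gins1 from 8.28, 6.22 and 15.1 CPM with H2O to 0.633, 0.757 and 0.788 CPM with LPS, -3.45 ± 0.39 (SE, adjusted p = 0.003). These falls were near the G2/M median. Mcm5 went from 52.2, 38.7 and 94.6 CPM with H2O to 2.23, 7.0 and 7.12 CPM with LPS, -3.2 ± 0.53 (SE, adjusted p = 0.00902), and Mcm6 from 54.6, 42.1 and 105 CPM with H2O to 9.9, 13.9 and 12.1 CPM with LPS, -2.17 ± 0.34 (SE, adjusted p = 0.00786). Pcna was at 107, 78.6 and 169 CPM with H2O and 28.9, 25.7 and 31.5 CPM with LPS, -1.73 ± 0.28 (SE, adjusted p = 0.00846), a level that stayed well above the floor. Ccne1 was at 9.92, 7.36 and 16.5 CPM with H2O against 1.01, 1.64 and 2.07 CPM with LPS, -2.52 ± 0.4 (SE, adjusted p = 0.00763), Ccne2 at 10.9, 5.62 and 13.9 CPM with H2O against 1.39, 1.12 and 2.49 CPM with LPS, -2.29 ± 0.46 (SE, adjusted p = 0.0153), and Uhrf1 at 28, 20.2 and 43.3 CPM with H2O against 2.36, 5.14 and 7.09 CPM with LPS, -2.34 ± 0.45 (SE, adjusted p = 0.0139). The copy Cdc45_1 changed by -2.82 ± 0.55 (SE, adjusted p = 0.0139).

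The 6 G1/S members not called with LPS were Mcm3, Mcm10, Cdt1, Gins2, Rfc4 and Tyms. Cdt1 was at 10.8, 7.77 and 21.5 CPM with H2O and 3.04, 1.8 and 6.43 CPM with LPS, all below, -1.51 ± 0.57 (SE, adjusted p = 0.093), and was called with the replicate block (-1.58, adjusted p = 0.00935). Tyms was at 29.1, 25.1 and 47.7 CPM with H2O against 17.7, 13.1 and 9.37 CPM with LPS, -1.02 ± 0.33 (SE, adjusted p = 0.0605). Gins2 was at 8.83, 7.72 and 13.2 CPM with H2O against 4.03, 5.22 and 6.12 CPM with LPS, -0.64 ± 0.26 (SE, adjusted p = 0.107). In these 3 genes the groups did not overlap. Mcm10 was at 17.5, 14.6 and 21.3 CPM with H2O and 19.6, 21.6 and 9.3 CPM with LPS, 0.23 ± 0.33 (SE, adjusted p = 0.628); its LPS library 3 was the lowest and the groups overlapped. Without both libraries numbered 3, Mcm10 was called higher, with 0.64 ± 0.15 (adjusted p = 0.0278). In plain CPM that sets 17.5 and 14.6 with H2O against 19.6 and 21.6 with LPS. The TMM scale lies 0.31 above plain CPM with all libraries, and its shift in the smaller fit is not given. Nor is the share of all genes called higher there.

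Ccnd1 and Ccnd2 were not called with LPS, nor was Cdk2. Ccnd1 was at 231, 142 and 209.7 CPM with H2O and 93.9, 133 and 49.6 CPM with LPS, -0.77 ± 0.37 (SE, adjusted p = 0.164), and Ccnd2 at 143, 96.5 and 133 CPM with H2O against 101, 166 and 75.3 CPM with LPS, 0.18 ± 0.3 (SE, adjusted p = 0.678). Cdk2 was at 13.5, 14.6 and 21.4 CPM with H2O against 6.71, 8.28 and 11.3 CPM with LPS, all below, -0.6 ± 0.25 (SE, adjusted p = 0.117); it was called lower with the replicate block (-0.61, adjusted p = 0.0383). Cdkn1a rose from 167, 155 and 108 CPM with H2O to 1446, 749.9 and 601 CPM with LPS, 3.02 ± 0.42 (SE, adjusted p = 0.006), and the lowest LPS library was well above the highest H2O library. Cdkn2c fell from 11.2, 12.7 and 21.8 CPM with H2O to 1.24, 2.51 and 2.52 CPM with LPS, -2.56 ± 0.37 (SE, adjusted p = 0.00646). Cdkn1b was at 39.3, 49 and 40.5 CPM with H2O and 30.6, 23.1 and 22.9 CPM with LPS, -0.44 ± 0.19 (SE, adjusted p = 0.123), without overlap.

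Outside the set, 24 of 41 other replication genes fell with LPS and 1 rose, and 48 of 59 other mitosis genes fell and 0 rose, with medians of -0.98 and -2.56. Ube2c, an enzyme that marks mitotic cyclins for destruction, fell from 17.1 ± 5.05 to 0.689 ± 0.729 CPM, -4.33 ± 0.79 (adjusted p = 0.0118), and Orc1 from 4.22 ± 1.66 to 0.286 ± 0.117 CPM, -3.56 ± 0.51 (adjusted p = 0.00592). The 1 riser was Pold3, a subunit of DNA polymerase delta, from 24.8 ± 0.93 to 25.9 ± 0.354 CPM, 0.37 ± 0.11 (adjusted p = 0.0486). Most of that log2 change is the 0.31 by which the TMM scale lies above plain CPM in this comparison. Regulators of E2F, RB and DREAM fell in 12 of 27 cases, E2f8 the most (-4.64 ± 0.64 (adjusted p = 0.0058)), and Lin37, a DREAM subunit, rose from 11.7 ± 1.8 to 14.8 ± 0.892 CPM, 0.65 ± 0.15 (adjusted p = 0.0245). Part of the log2 change of Lin37 is the same 0.31 of scale. Targets of p53 rose in 5 of 22 cases and fell in 1, beside 16% and 13.8% of all genes. Phlda3 rose from 8.53 ± 1.47 to 45 ± 39.3 CPM, 2.73 ± 0.71 (adjusted p = 0.0333), and Btg2, an antiproliferative gene, from 12.4 ± 3.32 to 55 ± 40.5 CPM, 2.45 ± 0.56 (adjusted p = 0.022). Cdkn2a rose as with ENV, from 11.5 ± 2.21 to 31.6 ± 17.7 CPM, 1.76 ± 0.41 (adjusted p = 0.0242). With the replicate block Pold3 (0.37, adjusted p = 0.0824), Btg2 (2.22, adjusted p = 0.0519) and Cdkn2a (1.63, adjusted p = 0.0520) did not pass.

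**Figure D2:**
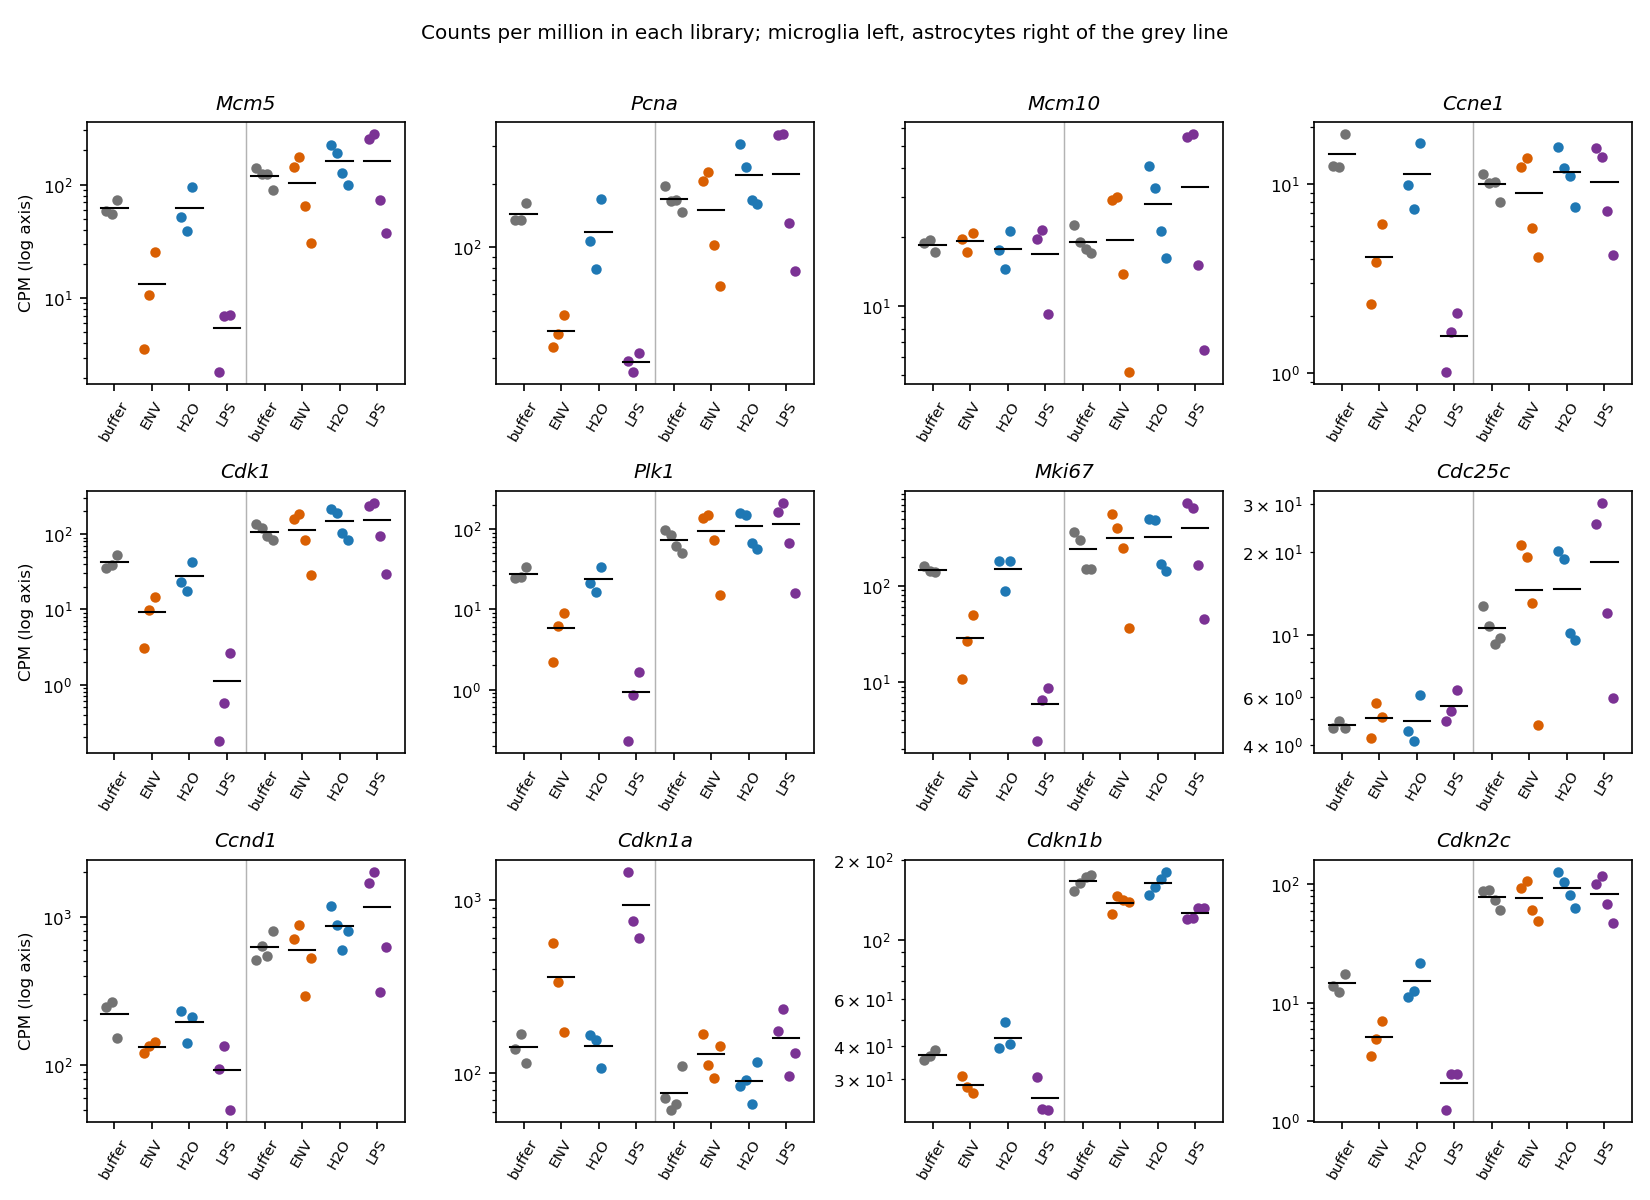
CPM of selected members in each library on log axes, microglia left and astrocytes right of the grey line, with 1 point per library. In microglia the treated points of most replication and mitosis genes drawn lie below their vehicles and those of Cdkn1a above. Those of Mcm10 and Cdc25c overlap their vehicles. In astrocytes the points of most genes fan out and overlap between groups, while the treated points of Cdkn1b lie below their vehicles.

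Markers of other cell types had other levels in the treated microglial libraries. Summed over 14 oligodendrocyte-lineage markers, led by Olig1, the level was 321 to 349 CPM with buffer and 89.3 to 174 CPM with ENV, where Mog and Mobp were at 0. It was 21.5 to 159.7 CPM with H2O, with Mag at 0 and library 3 the highest, and 18.3 to 43.4 CPM with LPS, with Mog at 0. The fibroblast and mural list, 16 of 16 listed, was led by Pdgfra, Fn1 and Cspg4 with buffer and with ENV. It was led by Fn1, Pdgfra and Col1a2 with H2O and by Fn1, Col1a1 and Pdgfra with LPS. Its sum was 80.9 to 162 CPM with buffer and 42.4 to 78.3 CPM with ENV, with Rgs5 at 0 in both and Lum at 0 with buffer. With H2O the sum was 42.7 to 82.3 CPM and with LPS 14.8 to 22.5 CPM. The astrocyte and endothelial lists went the other way with ENV. The 15 astrocyte markers, led by Glul and with Gjb6 at 0 in every microglial group, summed to 1481 to 1774 CPM with buffer and 2802 to 3403 CPM with ENV, and to 2024 to 2520 CPM with H2O and 1699 to 4950 CPM with LPS, overlapping. With ENV 1 of the 13 tested was called higher and 1 lower. The 7 endothelial markers listed, led by Esam, Pecam1 and Cdh5, summed to 68.2 to 79.8 CPM with buffer and 129 to 215 CPM with ENV, and to 84 to 124 CPM with H2O and 147 to 251 CPM with LPS. The part of these lists in the members' changes was not tested.

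The mean log2 CPM of the 25 G2/M members minus that of the 20 G1/S members, read only as a difference between libraries, was -0.14, -0.099 and -0.27 with buffer, -0.66, -0.17 and -0.48 with ENV, -0.19, -0.19 and -0.27 with H2O, and -2.73, -1.90 and -0.92 with LPS. Each LPS library was thus lower in mitotic relative to replication genes than every other microglial library, and library 1 the most. Tested directly, the ENV response minus the LPS response was called for 0 of 13270 genes in microglia by edgeR, against 937 at an unadjusted p under 0.05 and 64 called by DESeq2. Its median was 1.79 over the G2/M members, 0.55 over the G1/S members and 0.078 over all genes. For Mki67 the difference was 2.25 ± 0.76 (SE, adjusted p = 0.678) and for Cdkn1a -1.41 ± 0.63 (SE, adjusted p = 0.703). No member passed.

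**Figure D3:**
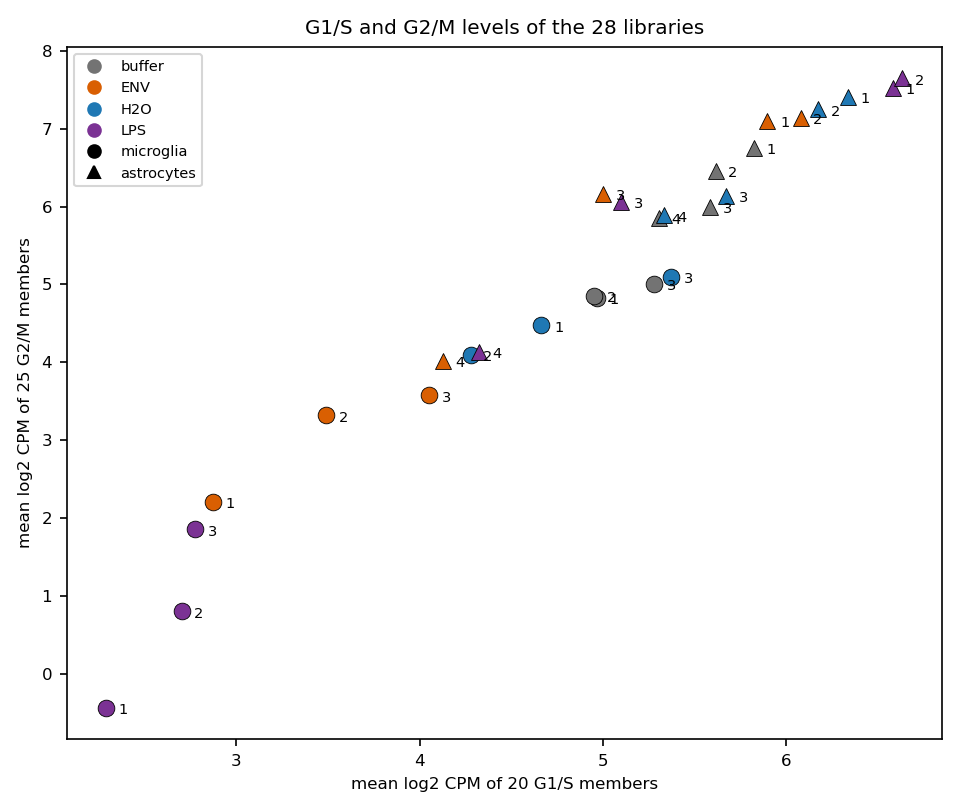
Mean log2 CPM of the 25 G2/M members against that of the 20 G1/S members shared by all tables, 1 point per library, coloured by group. The LPS microglia lie lowest (G2/M means of -0.44, 0.80 and 1.85), and the astrocyte libraries numbered 4 with ENV or LPS (4.02 and 4.13) lie below their vehicles.

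In astrocytes the set did not move as one. With ENV, 0 of 53 members were called lower and 1, Cdkn1a, higher, where 8.35% of all 14941 genes were called lower and 9.52% higher. At an unadjusted p under 0.05 there were 2 of the 53 members, beside 4889 of the 14941 genes. Median log2 changes were -0.15 for 22 G1/S members and 0.20 for 25 G2/M members. With LPS, 0 of 53 were called in either direction, beside 2.69% of 14710 genes lower and 2.64% higher, with medians of 0.022 and 0.052. Here too 2 members were at an unadjusted p under 0.05, beside 3067 of the 14710 genes. DESeq2 called 1 member lower with ENV, and 1 lower and 1 higher with LPS. The standard errors of G2/M members, 0.40 to 0.71 with ENV and 0.50 to 0.83 with LPS, were larger than the median changes.

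Cdkn1a was at 72.3, 61.4, 66.7 and 110.2 CPM with buffer and 168, 112, 94 and 143 CPM with ENV in astrocytes. The groups overlapped through buffer library 4, and the change was 0.76 ± 0.22 (SE, adjusted p = 0.0458); it was not called without buffer library 1, ENV library 1, buffer library 2 or buffer library 3. With LPS it was at 85.1, 91.8, 67 and 116 CPM with H2O and 175, 234, 96.9 and 130.3 CPM with LPS, 0.84 ± 0.27 (SE, adjusted p = 0.119), and was called with the replicate block (0.79, adjusted p = 0.0381). Cdkn1b was the member whose groups did not overlap in either comparison, lying below its vehicles as 10.6% of all genes did with ENV and 7.85% with LPS. It was at 153, 164, 173 and 176 CPM with buffer and 126, 146, 141 and 139.7 CPM with ENV, -0.26 ± 0.081 (SE, adjusted p = 0.0608). With H2O it was at 148, 158, 170.4 and 181 CPM and with LPS at 120.5, 121, 132 and 132 CPM, -0.36 ± 0.1 (SE, adjusted p = 0.0733). With the replicate block Cdkn1b was called lower in both, with log2 changes of -0.26 (adjusted p = 0.0291) and -0.36 (adjusted p = 0.0159). Cdkn2c was at 88.3, 88.8, 74.3 and 60.4 CPM with buffer and 92.6, 107, 61.3 and 48.9 CPM with ENV, -0.0066 ± 0.26 (SE, adjusted p = 0.99), and overlapped.

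E2f1 and Cdc45 were measured by exact symbol only here. E2f1, the E2F that activates G1/S genes, was at 41.7, 38.5, 37.9 and 28 CPM with buffer and 28.5, 38.2, 19.7 and 13.1 CPM with ENV, -0.55 ± 0.31 (SE, adjusted p = 0.261); with the replicate block it was called lower (-0.63, adjusted p = 0.0313). With LPS it was at 53.6, 44.2, 41.6 and 27.4 CPM with H2O against 44.9, 54.5, 21.6 and 14.2 CPM with LPS, -0.3 ± 0.41 (SE, adjusted p = 0.75). Cdc45 was at 14.5, 13.7, 14.4 and 11.7 CPM with buffer and 16.8, 18.3, 10.04 and 3.52 CPM with ENV, -0.15 ± 0.43 (SE, adjusted p = 0.853). Both genes overlapped between groups in both comparisons.

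The direction differed by replicate number. Mki67 was at 369.6, 302, 149 and 152 CPM in buffer libraries 1 to 4 and 567, 404, 249 and 36.8 CPM in the ENV libraries, so the treated library was higher in numbers 1 to 3 and lower in number 4. Mcm5 was at 140.1, 123, 123 and 89.8 CPM with buffer against 143, 174, 65.2 and 30.7 CPM with ENV, higher in numbers 1 and 2 and lower in 3 and 4. For LPS, Mki67 was at 494, 491, 171 and 143 CPM with H2O and 734, 654, 165 and 46 CPM with LPS, and Mcm5 at 224, 188, 127 and 99.5 CPM with H2O against 252, 279, 73.6 and 37.2 CPM with LPS. The vehicles also differed, with Mki67 more than 1.5-fold higher in numbers 1 and 2 than in 3 and 4 for both. Ccnd1 with LPS was at 1182, 885, 599.5 and 803 CPM with H2O against 1684, 2010.00, 309 and 623 CPM with LPS, higher in numbers 1 and 2 and lower in 3 and 4.

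Taken by number on the TMM scale, the ENV minus buffer median of G1/S members was 0.093, 0.38, -0.58 and -1.09 for numbers 1 to 4, and that of G2/M members 0.34, 0.63, 0.16 and -1.80. With LPS the G1/S medians were 0.21, 0.44, -0.57 and -0.88 and the G2/M medians 0.074, 0.39, -0.016 and -1.67. In number 4 all 22 G1/S and all 25 G2/M members lay below the vehicle with both agents. Buffer and H2O libraries of the same number deviated together (correlation 0.28 to 0.78), so the 2 agents may not be independent observations here. Whether their libraries share preparations is not stated. In number 3 the groups of members parted: 19 of 22 G1/S members were below 0 with ENV but 4 of 25 G2/M members, and 20 of 22 against 16 of 25 with LPS. Within numbers 1 and 2 alone, 18 members were called higher with LPS (9 G1/S, 7 G2/M, Ccnd1 and Cdkn1a) and 2 lower, Ccnb2 and Cdkn1b, where 9.78% of all 14809 genes were called higher and 10.3% lower. There Ccnb2 changed by -0.38 ± 0.078 (adjusted p = 0.0179) while Mki67 changed by 0.47 ± 0.089 (adjusted p = 0.0134). In the same split with ENV no member passed, but only 372 of all genes were called there in either direction, against 2970 with LPS. Without both libraries numbered 4, no member passed with LPS, where 260 of all genes were called, and Cdkn1a alone passed with ENV. With so few genes called, a list of 53 may hold none.

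The summed fibroblast and mural markers, of which none was at 0 in every astrocyte library of a group, were 12108 ± 4804 CPM (SD, n = 4; 5226 to 16417) with buffer and 5473 ± 1552 CPM (3218 to 6770) with ENV, and 9286 ± 3630 CPM (5128 to 13301) with H2O and 5230 ± 860 CPM (3959 to 5759) with LPS. They were lowest in number 4 of each of the 4 groups. The summed astrocyte markers were instead highest in number 4 of each group. There they were at 16620 CPM with buffer, 10209 CPM with ENV, 16561 CPM with H2O and 10194 CPM with LPS. Lists other than the fibroblast and mural one also summed lower with ENV than with buffer. The means were 12249 and 7882 CPM for astrocyte markers (6 of 15 called lower and 1 higher), 727 and 365 CPM for neuronal, 267 and 140 CPM for oligodendrocyte-lineage and 902 and 533 CPM for microglial markers. With H2O and LPS the same lists summed to 10764 and 6681 CPM, 649 and 346 CPM, 253 and 162 CPM, and 787 and 449 CPM. The part of these lists in the spread of the members was not tested.

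**Figure D4:**
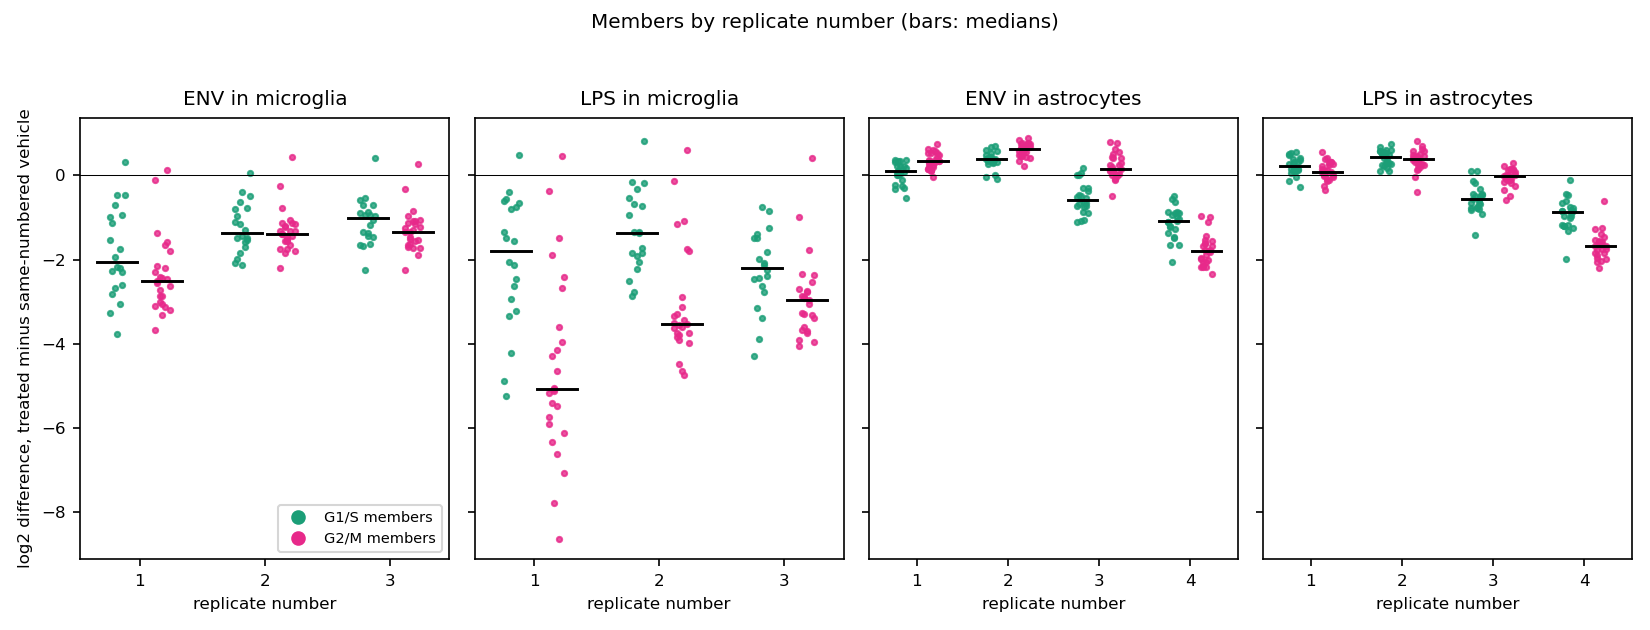
Log2 difference of each G1/S and G2/M member between a treated library and the vehicle library of the same number, on the TMM scale, with bars at the medians. In microglia all medians are below 0; in astrocytes numbers 1 and 2 lie above 0 and number 4 below it (ENV G2/M median 0.34, 0.63, 0.16 and -1.80).

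Few other replication or cycle genes were called in astrocytes, where 8.35% of all genes were called lower and 9.52% higher with ENV. With LPS the shares of all genes were 2.69% and 2.64%, so low that a short list may hold no called gene. With ENV the origin recognition gene Orc2 rose (0.33 ± 0.09 (adjusted p = 0.0379)) among 41 other replication genes and 0 of 58 other mitosis genes were called; E2f4, Myc and Lin37 rose by 0.39 ± 0.08 (adjusted p = 0.0125), 0.53 ± 0.16 (adjusted p = 0.0479) and 0.55 ± 0.12 (adjusted p = 0.0174). Fas rose and Sesn1 fell, 1.1 ± 0.25 (adjusted p = 0.0216) and -0.88 ± 0.2 (adjusted p = 0.0189), as in microglia. With LPS no gene of these replication, mitosis, E2F or p53 lists was called, and Cdkn1c, p57, fell from 4.05 ± 1.27 to 1.3 ± 0.443 CPM, -1.62 ± 0.36 (adjusted p = 0.0389). The mitogen gene Csf1, which fell in microglia, rose in astrocytes from 421 ± 66.9 to 1399 ± 417 CPM with ENV (1.75 ± 0.23 (adjusted p = 0.00221)) and from 412 ± 107 to 1282 ± 565 CPM with LPS (1.67 ± 0.36 (adjusted p = 0.0355)).

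The responses of the cell types were compared directly over symbols in both tables. For ENV, 5 of 51 members responded lower in microglia than in astrocytes and 0 higher, beside 8.07% of 13378 genes lower and 6.87% higher, a share of members near that of all genes. The 5 were Mcm4 (-1.43 ± 0.42 (SE, adjusted p = 0.0394)), Gins1 (-2.25 ± 0.7 (SE, adjusted p = 0.047)), Pcna (-1.5 ± 0.47 (SE, adjusted p = 0.0492)), Bub1 (-2.36 ± 0.73 (SE, adjusted p = 0.0464)) and Cdkn2c (-1.3 ± 0.41 (SE, adjusted p = 0.0491)). The medians were -1.35 over G1/S members, -1.86 over G2/M members and -0.064 over all genes. The count turned on single astrocyte libraries: it was 34 without ENV library 4, 29 without all astrocyte libraries numbered 4, and as low as 0 in other fits that left out 1 library, and none of the 5 was called in every such fit. With the replicate block 16 members were lower and Ccnd2 was higher (0.91, adjusted p = 0.0141). All genes called in either direction numbered 1414 to 2287 in the fits that left out 1 library and 3314 with the replicate block. The share of all genes called lower in each of these fits is not given, so these counts of members have no background beside them.

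For LPS, 13 of 51 members responded lower in microglia, 5 G1/S, 7 G2/M and Cdkn2c, and Cdkn1a responded higher, beside 7.14% of 13284 genes lower and 5.32% higher. The largest differences were those of Mki67 (-4.69 ± 1.18 (SE, adjusted p = 0.0247)), Plk1 (-4.44 ± 1.13 (SE, adjusted p = 0.0252)) and Cdk1 (-4.39 ± 1.18 (SE, adjusted p = 0.0316)) among mitotic members and of Cdc6 (-4.01 ± 0.92 (SE, adjusted p = 0.0162)) among replication members. Cdkn1a differed by 2.15 ± 0.49 (SE, adjusted p = 0.0153). The medians were -1.94 for G1/S members, -3.62 for G2/M members and -0.12 for all genes. The number lower was 36 without astrocyte LPS library 4, 29 without all astrocyte libraries numbered 4, 26 without microglial LPS library 3, 33 with the replicate block, and 3 without microglial LPS library 1 or without library 2. Of the 14 called, 4 were called in every fit that left out 1 library. Those fits called 1105 to 1820 of all genes in either direction, and the replicate block 3029. The share called lower in each fit is again not given.

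Without a stimulus, most mitotic members were lower in microglia than in astrocyte cultures. Cell type, preparation and library set cannot be told apart here. With buffer, 21 of 25 G2/M members were lower in microglia and 0 higher (median -0.96), and with H2O 22 were lower and 0 higher (median -1.79). In all, 32 of 51 members were lower and 4 higher with buffer, beside 36.4% and 33.6% of 12984 genes, and 30 lower and 1 higher with H2O, beside 37.7% and 33.2% of 12916 genes. Kif23, a kinesin of the midbody, differed the most: with buffer it was at 14, 11.5 and 13.1 CPM in microglia and 121, 103, 76.6 and 62.4 CPM in astrocytes. The difference was -2.45 ± 0.27 (SE, adjusted p = 0.0001), and -2.87 ± 0.52 (SE, adjusted p = 0.00216) with H2O. Mki67 was not called in either (-0.35 and -0.6, adjusted p = 0.398 and 0.344), and its astrocyte buffer libraries numbered 3 and 4 lay near the microglial level. Without microglial H2O library 2 the number lower with H2O was 19.

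Of 20 G1/S members 7 were lower in microglia with buffer, a share near the 36.4% of all genes, and 3 were higher, where 33.6% of all genes were: Gins2 (0.9 ± 0.29), Rfc3 (0.73 ± 0.21) and Ccne1 (0.91 ± 0.22), with adjusted p of 0.0242, 0.0149 and 0.00661. With H2O 5 were lower and 0 higher, beside 37.7% and 33.2% of all genes. Uhrf1 was lower in both, with differences of -1.15 ± 0.22 (SE, adjusted p = 0.00172) and -1.59 ± 0.39 (SE, adjusted p = 0.00867). The cyclin E genes went apart with buffer, since Ccne2 was lower in microglia, -0.88 ± 0.18 (SE, adjusted p = 0.0025). Ccnd1 was lower in microglia with buffer, -1.12 ± 0.22 (SE, adjusted p = 0.00203), and with H2O, -1.65 ± 0.28 (SE, adjusted p = 0.00142).

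The inhibitors differed in direction. Cdkn1a was higher in microglia with buffer, 1.24 ± 0.2 (SE, adjusted p = 0.000681), and with H2O, 1.19 ± 0.22 (SE, adjusted p = 0.00239). Cdkn1b was lower, -1.8 ± 0.1 (SE, adjusted p = 3.07e-06) and -1.42 ± 0.13 (SE, adjusted p = 6.09e-05), with tight groups and no overlap in either. Cdkn2c was lower, -2.05 ± 0.23 (SE, adjusted p = 9.73e-05) and -2.13 ± 0.33 (SE, adjusted p = 0.00101).

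The vehicles themselves, buffer against H2O, gave 0 called genes by edgeR in microglia and in astrocytes, with 1946 and 125 genes at an unadjusted p under 0.05; DESeq2 called 682 in microglia. Without microglial H2O library 3, 1650 genes were called in either direction, where the fit of all libraries tested 12900. Of 25 G2/M members 3 were then higher with buffer, and of 20 G1/S members 0. The 3 were Bub1b (0.61 ± 0.15 (adjusted p = 0.0484)), Ccnb1 (0.86 ± 0.2 (adjusted p = 0.0439)) and Cdc20 (0.97 ± 0.22 (adjusted p = 0.0414)). The share of all genes called higher in this fit is not given, so the count of members has no background beside it. In astrocytes all 22 G1/S and all 25 G2/M members were lower with buffer than with H2O, with medians of -0.29 and -0.49, and none of these passed the test.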

How the data were processed

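Gene counts per library, deposited by the authors as 1 table each, are raw counts per gene symbol; per the submitters' processing notes the tools were HISAT2 and StringTie 1.3.3b and the assembly mRatBN7.2, with no order given. Per the labels' protocols, libraries were made from 150 ng total RNA with a mRNA capture kit; the strand setting was not given in the sources used here, nor the annotation release. Libraries of 1 group differed beyond counting noise (chi-square per degree of freedom at least 17.6), so each was kept as 1 replicate. Libraries of different groups came as near as 3.60 on this measure, closer than any pair within a group.

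Counts were tested with edgeR 4.0.16 (limma 3.58.1, R 4.3.3): TMM, filterByExpr, robust quasi-likelihood F test, 2-sided, Benjamini-Hochberg over all genes tested, called under 0.05, on the groups compared; differences between responses were interaction terms, and cell types were joined by symbol. SE is the log2 change divided by the square root of F. CPM divides counts by the library total; log2 CPM adds 0.5. Floors of 3 counts cover counting error only. Same-numbered libraries deviated together in all 4 treated comparisons (correlation 0.24 to 0.63 in every pair), a pairing taken from these data. For LPS it was less particular to the number. In astrocytes LPS library 2 correlated at 0.507 with its own number and 0.4998 with another, and in microglia other numbers reached 0.197.

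The members, and the lists of other genes and markers, were chosen with earlier results of these data known. Values per library are given for a panel of 30 members, the largest called change per role group and members against their group; for other lists, up to 3 called genes with the largest rise and 3 with the largest fall, at a mean of 1 CPM or more. Alternatives were DESeq2 1.42.0 and its size factors, no filter, all groups in 1 fit, the replicate block and left-out libraries; the procedure was tested on simulated data. The endothelial, neuronal and ependymal marker lists summed in the microglial groups to means of 73.1 to 196 CPM, 5.00 to 44.9 CPM and 2.07 to 3.34 CPM, and in the astrocyte groups to 6.10 to 11.6 CPM, 346 to 727 CPM and 17.7 to 43.2 CPM. The astrocyte list summed to 1606 to 3252 CPM in microglial and 6681 to 12249 CPM in astrocyte groups.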

Additional observations from a re-analysis of the deposited data

Results flagged for a closer look

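The difference between the cell types' responses was itself called for a few members. For ENV they were 5 of 51, all lower, a share near the 8.07% of all genes called lower. For LPS they were 14 of 51, beside 7.14% of all genes called lower and 5.32% higher. Of the 5, 0 were called in every fit that left out 1 library, and of the 14, 4 were. For ENV, the response in microglia minus that in astrocytes was -2.36 for Bub1, -2.25 for Gins1, -1.5 for Pcna, -1.43 for Mcm4 and -1.3 for Cdkn2c on the log2 scale. For LPS it was -4.69 for Mki67, -4.44 for Plk1, -4.39 for Cdk1, -4.25 for Ccna2, -4.12 for Bub1, -3.92 for Bub1b and -3.85 for Ttk among G2/M members. Among G1/S members it was -4.01 for Cdc6, -3.47 for Gins1, -3.22 for Mcm5, -2.35 for Ccne1 and -2.15 for Mcm4. Of the inhibitors, Cdkn2c differed by -2.41 and Cdkn1a by 2.15. Bub1, Gins1, Mcm4 and Cdkn2c were called for both agents, which may not be independent observations in astrocytes. Dixon's ratio was taken for the 30 panel members in each of the 4 astrocyte groups of 4 libraries (120 checks). It set no library apart from the other 3. With 4 libraries only a very wide gap can pass this check, so it cannot show that no library was outlying. The mean log2 CPM of the G2/M members was 7.10, 7.14, 6.16 and 4.02 in astrocyte ENV libraries 1 to 4.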

How the results depend on the processing

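In microglia the direction of the G1/S and G2/M medians held under every setting tried, and the counts of members lower stayed within 1.5 times except where given here; Ccnd2 with LPS turned to -0.16 without LPS replicate 2. With all 4 groups in the fit, 13 G2/M members were lower with ENV, and the share of all genes called lower there is not given. Members higher were 2 with ENV under the replicate block and 2 with LPS without both libraries numbered 3. With 1 library left out, members lower with ENV were 23 to 42 (G1/S 7 to 17, G2/M 16 to 23), higher 0 to 1, all genes 2466 to 5282; with LPS members lower were 24 to 39 (G1/S 9 to 14, G2/M 14 to 23), all genes 1351 to 3986, G2/M medians -4.48 to -3.11.

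In astrocytes with ENV, 1 member was lower with DESeq2 size factors, with DESeq2 and with all groups in the fit, and 0 were higher with those size factors, with all groups, with numbers 1 and 2 only and with numbers 3 and 4 only. All genes called were 372 and 950 in those splits, where numbers 3 and 4 gave a G1/S median of -0.84 and Cdc25c at -0.031. With LPS, all genes called were 2061 with DESeq2, 1736 with all groups, 2970 with numbers 1 and 2 and 260 without number 4; members lower were 1 with DESeq2 and with all groups and 2 with numbers 1 and 2 (1 of them G2/M), and members higher 1 and, with numbers 1 and 2, 18. With numbers 3 and 4, Ccnd1 was at -0.54. Leaving out 1 library gave 1487 to 2869 genes and 0 to 1 members higher with ENV, 236 to 681 genes with LPS, and medians of -0.42 to 0.14 (G1/S) and -0.094 to 0.56 (G2/M) with ENV and -0.31 to 0.32 and -0.37 to 0.41 with LPS.

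The replicate block gave 4348 genes, 2 members lower and 1 G1/S member lower with ENV in astrocytes, and 2611 genes with 1 member lower and 1 higher with LPS; it gave 1 gene for ENV minus LPS in microglia. For microglia minus astrocytes it gave 3314 genes with 16 members lower and 1 higher (ENV), and 3029 genes with 33 lower (LPS); for microglia against astrocytes with buffer 2 higher, and with H2O Rfc3 at -0.026. In the 4 comparisons of a treatment with its vehicle it changed no call of a gene named in the text other than those given in the report.

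ENV minus LPS in microglia gave 64 genes with DESeq2, 8 without the H2O and LPS libraries numbered 3, and 0 to 4 with 1 library left out. For the ENV interaction, members lower were 2 with size factors, 12 with DESeq2, 1 without a filter, 29 without astrocyte number 4 and 0 to 34 with 1 library left out (1414 to 2287 genes). For LPS they were 30 with DESeq2 (2714 genes), 29 without number 4 and 3 to 36 with 1 left out (1105 to 1820 genes). Microglia against astrocytes gave 24 to 34 lower and 3 to 5 higher with buffer and 19 to 37 lower with H2O, where Rfc3 turned to -0.16 without microglial number 3 and -0.016 without astrocyte H2O replicate 4 (-0.16 to 0.28 over left-out libraries). Buffer against H2O in microglia gave 682 genes with DESeq2, 1 without a filter, and 1650 genes with 3 members higher without H2O replicate 3 (0 to 1650 and 0 to 3 over left-out libraries). Depth limits the LPS microglia, where Ccnb2 and Cenpf reached 0.0507 CPM in 1 library, below the floor.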
